A study of Mus musculus with 20 samples.

Results

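The syndecans and glypicans are the cell-surface proteins that carry heparan sulfate chains. They were examined in 20 single cells of the mouse inner cell mass through 8 of their genes: Sdc1, Sdc2, Sdc3, Sdc4, Gpc1, Gpc3, Gpc4 and Gpc6. These made up 8 of the 18193 genes on the array. The glypican genes Gpc2 and Gpc5 were not among the 8 and were listed with other heparan sulfate proteoglycans. Members were taken by gene symbol, all probe sets annotated to those symbols were kept (22 in all), and each gene was read through its brightest probe set with the others as a check. The rule names the genes by symbol, and within a gene the brightest probe set was picked by its measured level. The members, and the other gene lists used below, were chosen with earlier results of these data known.

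The cells came from C57BL/6 blastocysts at embryonic day 3.5, and no genotype, treatment or time distinguished them. Inner cell masses were dispersed with trypsin-EDTA and 55 cells were picked at random, of which 50 passed a PCR screen for Oct4 and against Cdx2, which removed trophectoderm cells. Amplified cDNA of 20 cells was hybridised, 1 cell to an Affymetrix array. The labels name no embryo for any cell and give no groups, so values are described without p-values, and cells are numbered by their replicate label.

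Heparan sulfate is a sulfated sugar chain that binds fibroblast growth factors (FGFs) together with their receptors and is required for efficient FGF signalling. Syndecans span the membrane, whereas glypicans are held to its outer face by a lipid anchor, and both present ligands to receptors on the same or on neighbouring cells. In the blastocyst, FGF4 made by epiblast precursors acts on cells of the inner cell mass and promotes their entry into the primitive endoderm, the layer that later lines the yolk sac.

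Levels are given as log2(intensity + 8.49) after quantile normalization, so that the lowest level possible was 3.25. A probe set was called detected in a cell when it exceeded the floor of that array, the 95th percentile of 164 background probe sets for chemosensory receptors and for genes of unrelated tissues, which was 6.40 to 7.05 over the arrays. A level under the floor can mean that the transcript was absent or that it was lost during amplification of a single cell's cDNA, and these cannot be told apart. Levels of different genes were not compared, since probe sets differ in how brightly they read.

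The cells were divided into 2 clusters from the 500 most variable genes, without the 8 members and without any listed gene, and the clusters were named from marker lists. The primitive endoderm-like (PrE-like) cluster held cells 3, 4, 5, 6, 8, 10, 11, 15, 17 and 20, and the epiblast-like (Epi-like) cluster held cells 1, 2, 7, 9, 12, 13, 14, 16, 18 and 19. Of the primitive endoderm markers, 12 of 14 that were detected in at least 3 cells were at least 2-fold higher in the PrE-like cells and 1, Hnf4a, was lower. Of the epiblast markers, 6 of 11 were at least 2-fold higher in the Epi-like cells. The separation of the clusters was shallow, with a mean silhouette width of 0.10, but the split was the same as that given by Fgf4, which was detected in 0 of 10 PrE-like cells and 10 of 10 Epi-like cells. Between 11887 and 13142 probe sets were detected in PrE-like cells, against 11789 to 14337 in Epi-like cells. The 3′ minus 5′ difference of the Gapdh control probe sets, a sign of how far cDNA reached into transcripts, had a median of 1.99 in PrE-like cells and 2.53 in Epi-like cells. The summed level of 13 trophectoderm markers, counted over the floor, was 9.87 to 14.73 in PrE-like cells, with 6 markers never detected, and 7.08 to 17.87 in Epi-like cells, with 5 never detected. Elf5, Gata3, Krt7, Krt19 and Atp12a were never detected in either cluster, whereas Hand1 was detected in all 20 cells, Tfap2c in 13, Tead4 in 12, and Eomes and Krt8 in 9 each. Hand1 averaged 13.73 in PrE-like cells and 13.66 in Epi-like cells and made up a large part of the summed level. The other Hand1 probe set was detected in only 1 cell, so this part of the sum rests on the brightest probe set alone. Cdx2 was detected in 19 cells by its brightest probe set and in 0 by its other one. The part of trophectoderm transcripts in the results was not tested. Of the 8 such markers detected in at least 3 cells, 0 were at least 2-fold higher in PrE-like cells and 1, Tfap2c, in Epi-like cells.

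By the brightest probe set, 4 of the 8 genes were detected in at least 3 cells (Sdc1, Sdc3, Sdc4 and Gpc4) and 4 in no cell (Sdc2, Gpc1, Gpc3 and Gpc6), and none was detected in all 20. Among all 18193 genes, 35.4% were detected in no cell and 17.4% in all 20. A count of 0 in 20 cells allows a share of up to 15% of such cells, from counting error only. Each PrE-like cell had 1 to 3 of the 8 genes detected, with a median of 2, and each Epi-like cell had 0 to 2, with a median of 1. This gap came mainly from Sdc4, detected in 10 PrE-like and 3 Epi-like cells, and Sdc3, detected in 6 and 1. The Sdc3 levels lay close to the floor. Sdc1 was detected in 2 and 1 cells and Gpc4 in 4 and 5. Only Sdc4 differed by 2-fold or more between the clusters: 1 of the 4 genes was higher in the PrE-like cells, beside 3.08% of the 10055 genes detected in at least 3 cells, and 0 of 4 were higher in the Epi-like cells, beside 3.79% of those genes. Since the members were chosen with earlier results of these data known, these shares are a description only.

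**Figure D1:**
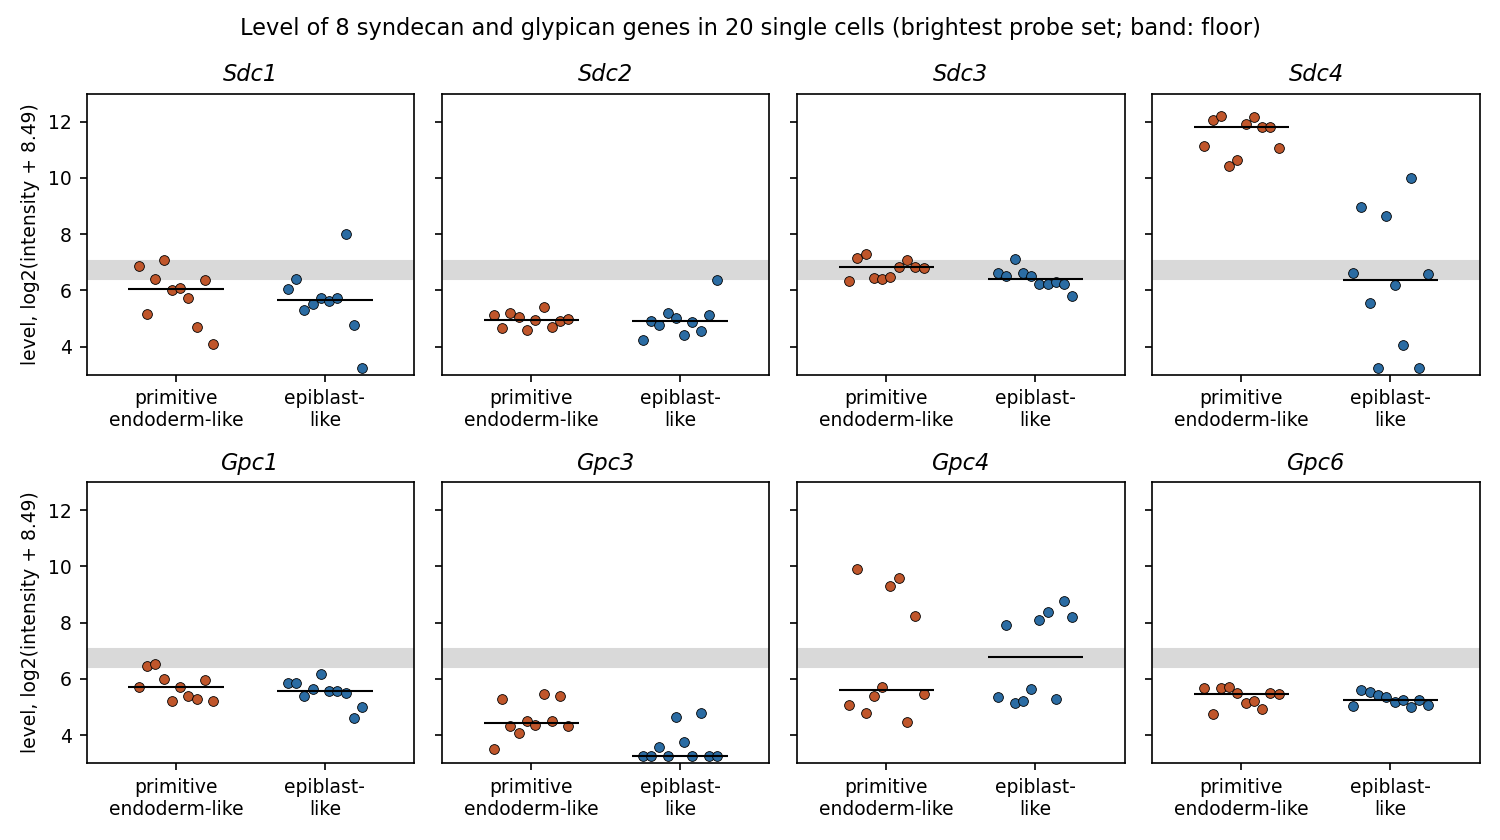
Level of each of the 8 genes by its brightest probe set, as log2(intensity + 8.49), with 1 point per cell, the 10 PrE-like cells left of the 10 Epi-like cells in each panel, a line at the median of each cluster and a grey band over the range of the floors (6.40 to 7.05). Sdc4 separates the clusters, Gpc4 is high in 4 PrE-like and 5 Epi-like cells, and Sdc2, Gpc1, Gpc3 and Gpc6 stay below the floors of their arrays.

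Sdc4 encodes syndecan-4, a transmembrane proteoglycan found at focal adhesions that binds protein kinase C alpha and alpha-actinin through its cytoplasmic tail. It was detected in all 10 PrE-like cells and in 3 of 10 Epi-like cells. Its level in PrE-like cells had a lowest value of 10.41 in cell 6, a median of 11.81 and a highest value of 12.19 in cell 5. In Epi-like cells the lowest value was 3.25 in cells 9 and 18, the median was 6.38 and the highest was 9.99 in cell 16. The clusters did not overlap.

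A complete separation of this kind, every PrE-like cell above every Epi-like cell, was seen for 0.159% of the 10055 genes, and the reverse for 0.0995%. When levels below the floor were set to the floor, Sdc4 averaged 11.52 ± 0.65 in PrE-like cells and 7.53 ± 1.20 in Epi-like cells (SD, n = 10 each). The difference of 3.99 on the log2 scale was 15.9-fold and ranked 4 among the 10055 genes. Since 7 of the 10 Epi-like cells entered at the floor, this fold understates the difference of the levels as read.

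The 3 Epi-like cells with detected Sdc4 were cell 2 at 8.96, cell 12 at 8.64 and cell 16 at 9.99. All 3 also had Fgf4 and Nanog, the epiblast-associated homeobox factor, above the floor. Fgf4 read 10.87 in cell 2, 10.64 in cell 12 and 11.37 in cell 16, below its range of 11.40 to 12.21 in the other 7 Epi-like cells, a pattern noticed after the values were seen. Gata6, a transcription factor that directs primitive endoderm formation, read 9.60, 9.67 and 7.93 in the same cells. Pdgfra read 10.20 in cell 2 and 10.21 in cell 12 but was at the lower limit of 3.25 in cell 16. Reads of endoderm-associated genes were not limited to these cells, since Pdgfra was also above the floor in Epi-like cells 1, 7 and 9 and Lama1 in Epi-like cells 7 and 18, none of them with Sdc4 by this probe set. Cell 16 is also the cell that changed to the PrE-like cluster when the clusters were built from 250 or from 1000 genes.

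A second probe set of Sdc4 gave a smaller difference. It was detected in all 10 PrE-like cells, at 6.98 to 10.65 with a median of 9.47, and in 5 Epi-like cells (2, 7, 12, 14 and 16), where it ran from 6.18 to 9.05 with a median of 7.01. By this probe set the clusters overlapped, and the difference was 1.75 on the log2 scale. Both probe sets were detected in 13 cells, only the second in 2 and neither in 5. Their levels correlated with r = 0.70 and rho = 0.68 over the 20 cells, with r = 0.30 within the PrE-like cells and r = 0.50 within the Epi-like cells, so the order of cells within a cluster was poorly shared by the probe sets. Within the PrE-like cells, the brighter probe set also correlated with the 3′ minus 5′ difference of Actb (r = 0.59, n = 10), and its part in that order was not tested.

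**Figure D2:**
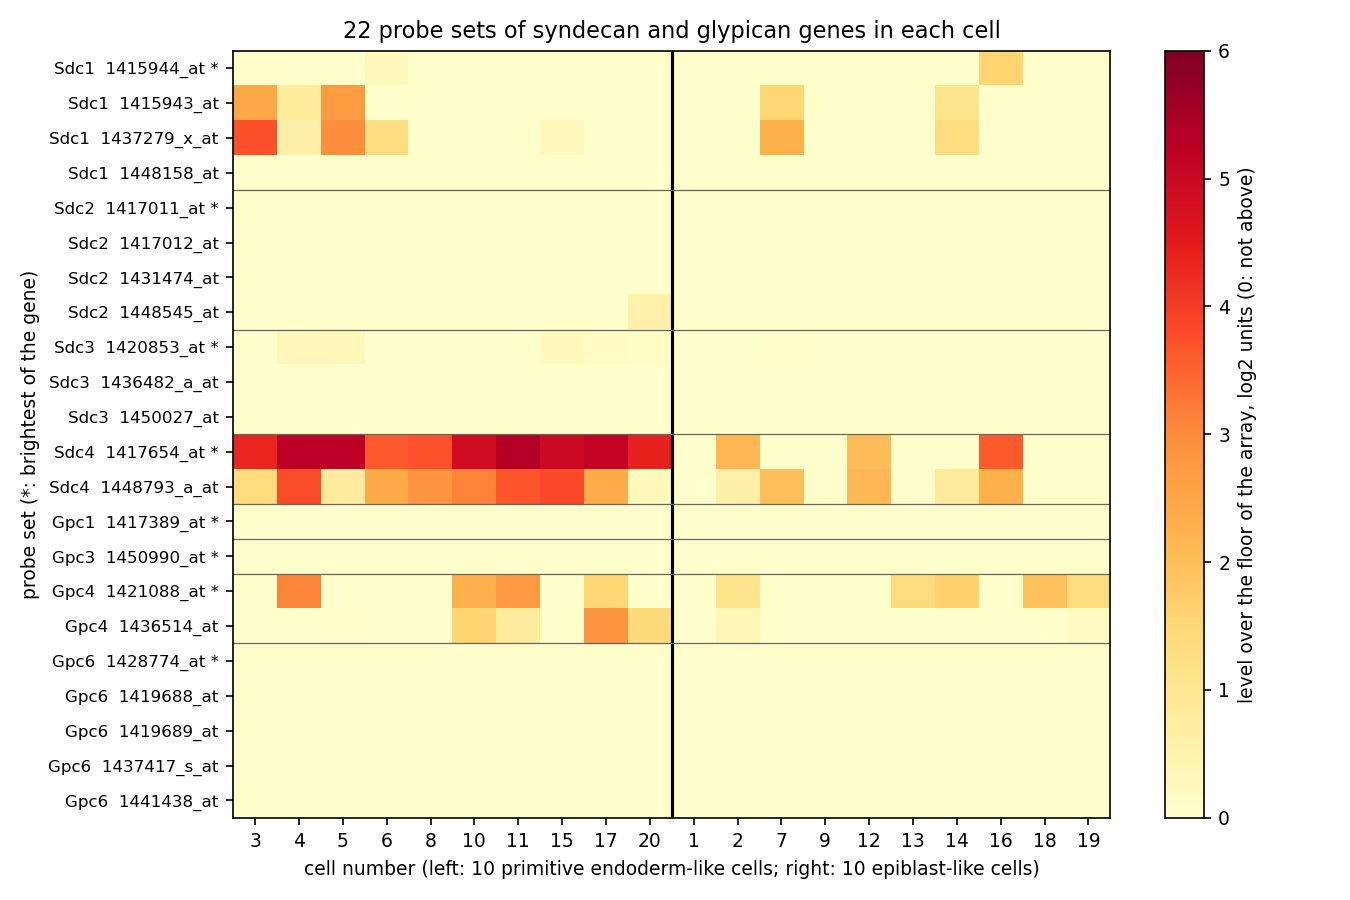
Level over the floor of the array, in log2 units, for all 22 probe sets (rows, grouped by gene, the brightest of each gene starred) in the 20 cells (columns, 10 PrE-like left of the black line and 10 Epi-like right of it); the palest colour means not above the floor. Both Sdc4 probe sets are above it in all 10 PrE-like cells, whereas both Gpc4 probe sets are above it in only 5 cells (10, 11 and 17, and 2 and 19).

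The proximal promoters of Sdc4, which followed the clusters, and of Gpc4, the glypican detected in both clusters, are shown from 250 bases before to 50 bases after the transcription start. Sequences are from RefSeq (mouse assembly GRCm38.p6), whose promoter table held 5 of the 8 genes, and capitals mark the letters GGGCGG (GC box) and GATA (the core of GATA factor sites) on either strand, so that CCGCCC and TATC are matches on the other strand. The Sdc4 window is chr2:164443139-164443438 and the Gpc4 window is chrX:52164874-52165173, both on the minus strand.
Sdc4: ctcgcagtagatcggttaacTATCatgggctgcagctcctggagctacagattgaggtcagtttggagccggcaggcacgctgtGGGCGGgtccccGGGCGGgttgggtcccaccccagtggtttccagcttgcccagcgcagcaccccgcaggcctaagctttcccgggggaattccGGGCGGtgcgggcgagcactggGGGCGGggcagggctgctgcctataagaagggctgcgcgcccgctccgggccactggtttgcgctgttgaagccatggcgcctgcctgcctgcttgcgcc
Gpc4: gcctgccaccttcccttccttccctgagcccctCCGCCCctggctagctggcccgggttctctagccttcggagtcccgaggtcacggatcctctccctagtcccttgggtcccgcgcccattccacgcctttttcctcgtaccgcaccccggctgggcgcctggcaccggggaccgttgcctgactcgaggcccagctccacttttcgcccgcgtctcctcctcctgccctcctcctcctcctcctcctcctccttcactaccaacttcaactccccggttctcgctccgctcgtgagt
The Sdc4 window held 4 GC boxes and 1 GATA core, which starts at base 21 and belongs to the longer form with A or T before the core and A or G after it. The Gpc4 window held 1 GC box and 0 GATA cores. The window of Gpc3, a gene detected in no cell, held 4 GC boxes and 1 GATA core. The Sdc1 and Sdc3 windows held 3 GC boxes and 0 GATA cores each. Of 32851 promoter windows of this length, 35.7% held a GC box, 57.9% a GATA core and 29.8% the longer GATA form, so none of these letters is rare. GC content was 67.7% in the Sdc4 window and 66.7% in the Gpc4 window, against a median of 52.7% over all windows. A match of letters is not evidence of binding.

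The genes whose pattern was most like that of Sdc4 over the 20 cells were Gata6 (r = 0.95, rho = 0.84), Shisal2b (r = 0.94, rho = 0.85) and Snx2 (r = 0.94, rho = 0.91), the last a sorting nexin of the endosome. All 3 were also higher in PrE-like cells, and the separation of the clusters enters these values. Within the PrE-like cells, r with Sdc4 was 0.30 for Gata6, 0.04 for Shisal2b and 0.58 for Snx2. Within the Epi-like cells it was 0.76, 0.92 and 0.74 in the same order. Sdc4 was detected in only 3 of the 10 Epi-like cells (2, 12 and 16) and was set to the floor in the others. The values within the Epi-like cells therefore rest mainly on those 3 cells. The likeness was weaker by the second Sdc4 probe set, at r = 0.66 for Gata6, 0.75 for Shisal2b and 0.67 for Snx2. All values come from the same arrays, and points share the amplification of 1 cell.

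By the brightest probe set of each gene, Sdc4 and Gata6 were above or below the floor together in 19 of 20 cells. Both were above in 13 and both below in 6, and cell 13 had Gata6 at 7.30 with Sdc4 at 6.18. The cluster split enters this count, since both genes were detected in all 10 PrE-like cells. The other Gata6 probe sets were detected in 10 PrE-like and 1 Epi-like cells, and in 8 and 5. The second Sdc4 probe set was also detected in cells 7 and 14, where Gata6 was below the floor. Pdgfra, the receptor for platelet-derived growth factor that marks the primitive endoderm, shared its state with Sdc4 in 16 cells. Fgfr2, an FGF receptor whose signalling needs heparan sulfate, was detected in 10 cells and Sdc4 was detected in each of them. Of those 10 cells, 9 were PrE-like, a cluster in which every cell had Sdc4 detected, and 1, cell 12, was Epi-like. Sdc4 without Fgfr2 was read in cells 2, 6 and 16. By the brightest probe set, cell 6 was the PrE-like cell with the lowest Sdc4. Its Fgfr2, at 4.22, was the only one of its cluster below the floor. By the second Sdc4 probe set, cell 6 read 9.16, and the lowest PrE-like cell was cell 20 at 6.98, with Fgfr2 at 10.20. With Fgf4, the ligand, Sdc4 was detected in 3 cells, all Epi-like. Sdc4 alone was detected in 10 and Fgf4 alone in 7, and no cell lacked both. The cluster split enters the counts with Pdgfra, Fgfr2 and Fgf4 as well.

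**Figure D3:**
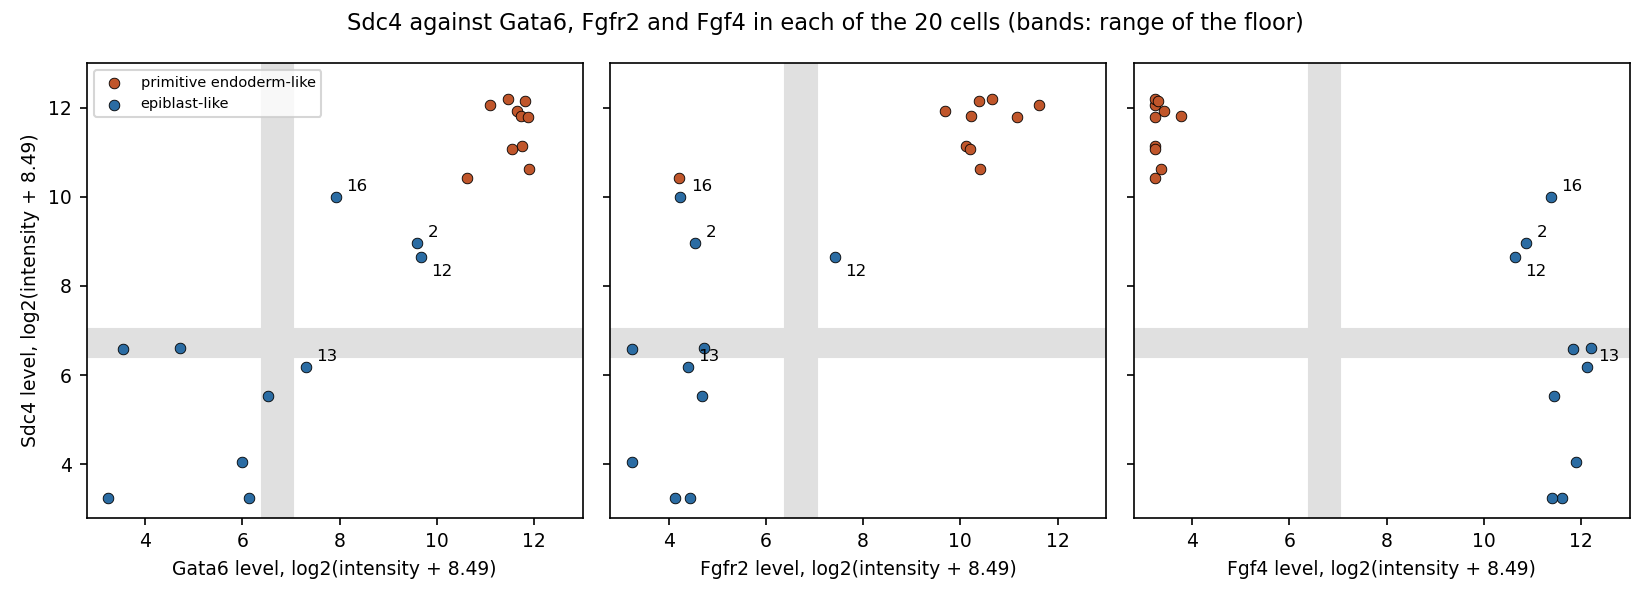
Level of Sdc4 against those of Gata6, Fgfr2 and Fgf4, all as log2(intensity + 8.49), with 1 point per cell coloured by cluster and grey bands over the range of the floors. The numbered Epi-like cells 2, 12 and 16 lie between the PrE-like cells, all above 10 in Sdc4, and the 7 Epi-like cells without detected Sdc4, among which cell 13 is numbered for its Gata6.

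Sdc1 encodes syndecan-1, the main syndecan of epithelia and plasma cells. Its brightest probe set was detected in 3 cells, at 6.88 in cell 3, 7.08 in cell 6 and 7.99 in cell 16, and averaged 6.87 ± 0.13 in PrE-like cells and 6.91 ± 0.40 in Epi-like cells (SD, n = 10 each). Another probe set, which is dimmer on average, was detected in 7 cells and reached 10.54 in cell 3, 9.92 in cell 5 and 9.31 in cell 7. A further probe set was detected in 5 of those 7 cells (3, 4, 5, 7 and 14), and these 2 probe sets correlated with r = 0.86 and rho = 0.62 over the 20 cells. By the more widely detected of these, Sdc1 was read in cells of both clusters, 5 PrE-like and 2 Epi-like, although its brightest probe set missed most of them. The fourth probe set was detected in 0 cells. By the probe set above the floor in the most cells, a choice made after its values were seen, the difference was 0.61 on the log2 scale.

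Sdc3 encodes syndecan-3, the longest syndecan, known mainly from the nervous system. It was detected in 6 PrE-like cells (4, 5, 11, 15, 17 and 20) and 1 Epi-like cell (7). A surplus of 5 or more PrE-like cells was found for 1.62% of the 10055 genes, and one of 5 or more Epi-like cells for 2.63%. All 20 levels lay close to the floor, at 6.34 to 7.30 in PrE-like cells and 5.79 to 7.10 in Epi-like cells. The cluster means were 6.95 ± 0.17 and 6.76 ± 0.18 for the PrE-like and the Epi-like cells (SD, n = 10 each), a difference of 0.20. The count of cells changed to 17 with a floor at the 90th percentile and to 0 with a floor at the 99th. The other probe sets were detected in 1 cell and in 0 cells, so Sdc3 was not clearly resolved from background on these arrays. The genes most like Sdc3, Clip3 (r = 0.93), Reg3g (r = 0.92) and Mamstr (r = 0.90), also stayed at or near the floor, with no level over 7.16, so that most of the values compared were the floor itself.

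Sdc2, which encodes the syndecan of mesenchymal cells, read 4.22 to 6.38 by its brightest probe set and was below the floor in every cell. Of its 3 other probe sets, 1 was detected in 1 cell, cell 20, at 7.25. No difference between the clusters can be read from a probe set below the floor throughout, nor from 1 cell above it.

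Gpc4 encodes glypican-4, a glypican that takes part in FGF and Wnt signalling. Its brightest probe set was detected in 9 cells, 4 of them PrE-like and 5 Epi-like. Primitive endoderm-like cells 4, 10, 11 and 17 read 9.91, 9.31, 9.57 and 8.23, and Epi-like cells 2, 13, 14, 18 and 19 read 7.90, 8.10, 8.39, 8.78 and 8.18. The other 11 cells read 4.48 to 5.72. Gpc4 was thus either clearly above the floor or clearly below it, in cells of both clusters, and the clusters overlapped. Its mean was 7.80 ± 1.32 in PrE-like cells and 7.50 ± 0.86 in Epi-like cells (SD, n = 10 each), a difference of 0.31, smaller than either SD by this probe set.

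The second Gpc4 probe set was detected in 7 cells, 5 PrE-like and 2 Epi-like, with 9.51 in cell 17 and 8.60 in cell 10 as its highest values. It shared 5 of them with the first probe set (2, 10, 11, 17 and 19), 4 cells were positive by the first alone and 2 by the second alone. It averaged 7.51 ± 0.95 in PrE-like cells and 6.81 ± 0.24 in Epi-like cells (SD, n = 10 each), a difference of 0.70, under 2-fold but larger than by the first probe set and than the SD of the Epi-like cells. The levels of the 2 probe sets correlated with r = 0.46 and rho = 0.37. Cell 4, the highest by the first probe set, read 4.66 by the second. Which cells contained Gpc4 was therefore not settled for 6 of the 11 cells in which either probe set was above the floor.

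By its brightest probe set, Gpc4 was detected with Fgf4 in 5 cells, alone in 4, and its state matched that of Gata6 in 9 of 20 cells. Gpc4 and Sdc4 were both detected in 5 cells, Sdc4 alone in 8, Gpc4 alone in 4 and neither in 3. The genes most like Gpc4 were Cnpy1 (r = 0.82, rho = 0.82), Carmil1 (r = 0.74, rho = 0.53) and Eif3h (r = 0.72, rho = 0.62), and with the second Gpc4 probe set their r was 0.43, 0.17 and 0.27.

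The other 3 glypicans were below the floor in every cell. Gpc1, whose product is the glypican of muscle and nervous tissue, read 4.61 to 6.51 by its single probe set. Gpc3, whose human counterpart is lost in an overgrowth syndrome, read 3.25 to 5.46 by its single probe set, with a median of 4.42 in PrE-like cells and 3.25 in Epi-like cells, all below the floor. Gpc6 read 4.75 to 5.69 by the brightest of its 5 probe sets, and none of the 5 was detected in any cell. For Gpc1 and Gpc3 no second probe set was there to check a probe set that reads poorly.

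The other genes of the heparan sulfate pathway were examined through 6 lists: other heparan sulfate proteoglycans, chain synthesis, precursors and sulfate donor, chain modification, remodelling and release, and syndecan partners. Of the 37 genes detected in at least 3 cells, 4 were at least 2-fold higher in PrE-like cells (10.8%) and 2 at least 2-fold higher in Epi-like cells (5.41%), beside 3.08% and 3.79% of all 10055 genes, and the counts by list rest on 0 to 2 genes in a direction. Of 15 of these genes that had another probe set detected in at least 3 cells, Hspg2 and Pdcd6ip passed 2-fold by another probe set only, and Ugp2 by its brightest only. The median difference was 0.14 over these genes and 0.01 over all 10055. Most of these genes therefore differed by less than 2-fold between the clusters. Since the lists were chosen with earlier results of these data known, the shares are a description only.

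**Figure D4:**
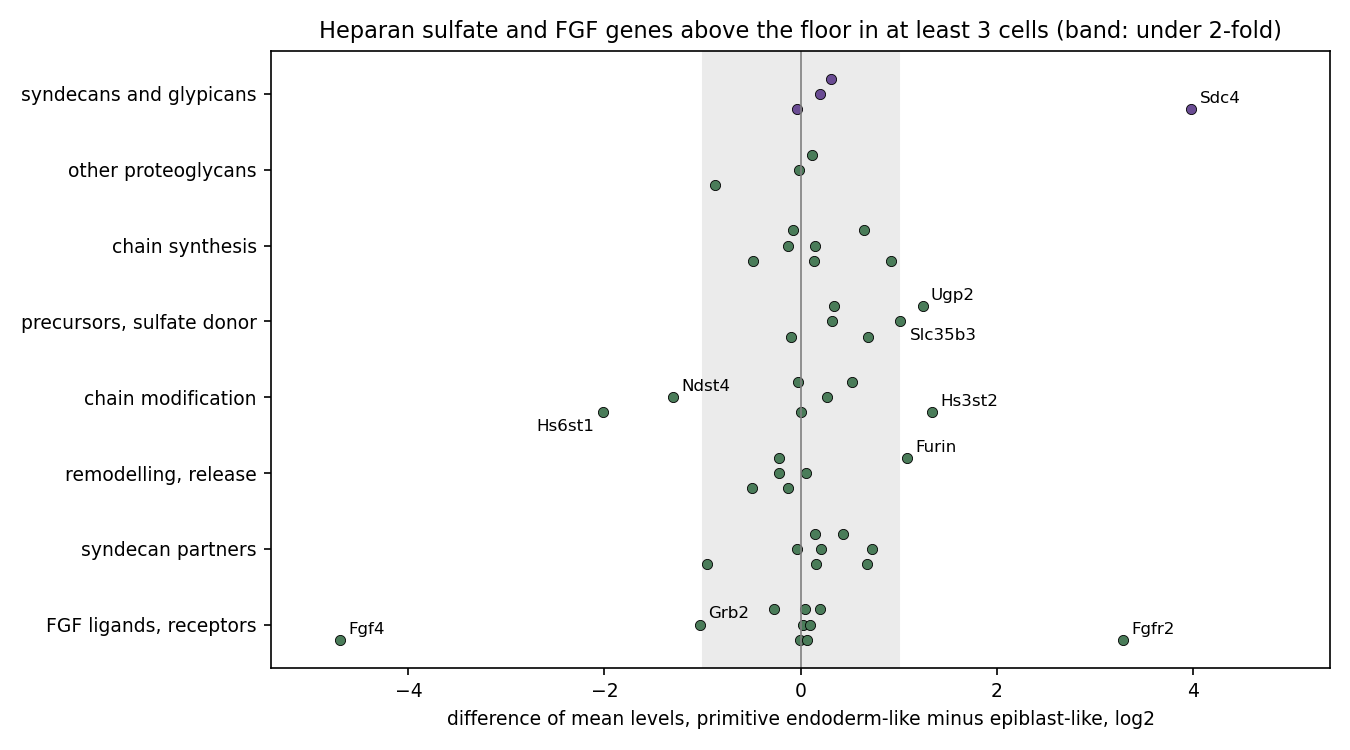
Difference of mean levels, PrE-like minus Epi-like cells, on the log2 scale, for each gene detected in at least 3 cells, by list, with the syndecans and glypicans at the top. The band spans differences under 2-fold; Sdc4 (3.99) and Fgfr2 (3.29) lie far to the right and Fgf4 (-4.70) far to the left, whereas the enzymes lie between -2.01 and 1.35.

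Genes that build the chain did not reach 2-fold in either direction (0 of 7). Extl3, which starts the heparan sulfate chain, was detected in all 20 cells and averaged 8.99 ± 0.45 in PrE-like cells and 9.06 ± 0.30 in Epi-like cells (SD, n = 10 each). Xylt1 was not measured by a probe set of its own. Of the 6 genes for precursors and the sulfate donor, 2 were higher in PrE-like cells and 0 in Epi-like cells: Ugp2, which makes UDP-glucose, by 1.25, and Slc35b3, a Golgi carrier of the sulfate donor, by 1.01, while Bpnt2 differed least (-0.10). The other Ugp2 probe sets stayed under 2-fold, at 0.94 and 0.97 for those detected in 15 and 17 cells. The levels of Ugp2 and Slc35b3 overlapped widely between the clusters.

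Among chain-modifying enzymes, 1 of 7 was higher in PrE-like cells and 2 were higher in Epi-like cells. Hs6st1, which adds sulfate at the 6-O position that FGF signalling complexes use, was detected in 5 PrE-like cells and 10 Epi-like cells. It averaged 7.42 ± 0.79 in PrE-like cells and 9.43 ± 0.85 in Epi-like cells (SD, n = 10 each), a difference of -2.01 by its single probe set. The level in PrE-like cells was 3.25 at the lowest, 6.94 at the median and 8.55 at the highest, against 8.15, 9.70 and 10.54 in Epi-like cells. The clusters overlapped between 8.15 and 8.55.

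Ndst4, an N-deacetylase and N-sulfotransferase, averaged 9.08 ± 0.96 in PrE-like cells and 10.38 ± 0.61 in Epi-like cells, a difference of -1.30 (SD, n = 10 each). Hs3st2, a 3-O-sulfotransferase, averaged 9.08 ± 0.54 in PrE-like cells and 7.73 ± 0.53 in Epi-like cells, a difference of 1.35 (SD, n = 10 each). For each of these genes the 2 other probe sets were detected in 0 cells, so the difference rests on 1 probe set of 3. Glce, the epimerase that makes iduronic acid, differed least in this list (0.01). Ndst1 and Hs3st5 had no probe set of their own.

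Of the genes that cut or edit the proteoglycan, 1 of 6 was higher in PrE-like cells and 0 in Epi-like cells. That gene was Furin, a proprotein convertase, at 8.54 ± 0.98 in PrE-like cells and 7.46 ± 0.81 in Epi-like cells (SD, n = 10 each). Adam10, a sheddase of syndecans, was detected in all 20 cells and differed by 0.06. Of the other heparan sulfate proteoglycans, 0 of 3 reached 2-fold by the brightest probe set, and Tgfbr3, the betaglycan gene, differed least (-0.01). Tgfbr3 averaged 7.19 in PrE-like and 7.21 in Epi-like cells, close to the floors, and its other probe set was detected in 0 cells. The other probe set of Hspg2, the perlecan gene, was detected in 5 PrE-like and 0 Epi-like cells and differed by 1.16, against 0.12 by the brightest. The brightest Hspg2 probe set also read close to the floors, at 7.52 in PrE-like and 7.39 in Epi-like cells. Of the intracellular partners of syndecans, 0 of 8 reached 2-fold by the brightest probe set, and Trappc4, also called synbindin, differed least (-0.04). For Pdcd6ip, which encodes ALIX, a probe set detected in 19 cells differed by 1.04, against 0.73 by the brightest. Hspg2 and Pdcd6ip lie outside the rule for named genes and were named after their values were seen.

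The FGF list and the list of other heparan sulfate ligands included wide differences. Fgf4, Lama1, Lamb1 and Lamc1 are also in the marker lists that named the clusters, so their differences are not separate from those names. Among all 10055 genes, 3.08% were at least 2-fold higher in PrE-like cells and 3.79% in Epi-like cells. In the FGF list of 10 genes, Fgfr2 was the 1 gene at least 2-fold higher in PrE-like cells, at 10.12 ± 1.29 in PrE-like cells and 6.83 ± 0.27 in Epi-like cells (SD, n = 10 each). Its 2 other probe sets were detected in 0 cells, so this value and the count of cells shared with Sdc4 rest on 1 probe set of 3. Fgf4 was below the floor in all 10 PrE-like cells and averaged 11.54 ± 0.51 in Epi-like cells (SD, n = 10), a difference of -4.70 whose size is a lower bound. Grb2, an adaptor downstream of FGF receptors, differed by -1.02, although the second Grb2 probe set differed by -0.16. Fgfr1 differed by -0.27 and was detected in 9 PrE-like and 10 Epi-like cells, and Fgf8 differed least (0.00). The 2 other Fgfr1 probe sets, detected in 10 and 7 cells, differed in the opposite direction, by 0.24 and 0.52. Of 15 other ligands, 3 were higher in PrE-like cells and 0 in Epi-like cells, and all 3 were chains of laminin-111, the basement membrane protein: Lama1 by 3.65, Lamb1 by 1.99 and Lamc1 by 1.70. Lamc1, which lies outside the rule for named genes and was named after its values were seen, differed by -0.20 at its second probe set. Cxcl12, a chemokine, differed least (0.03) by its brightest probe set, and its 2 other probe sets were detected in 0 cells.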

How the data were processed

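Each of 20 arrays held the PCR-amplified cDNA of 1 cell, labelled by the one-cycle Affymetrix protocol, per the labels' protocols. The authors deposited 1 linear intensity per probe set and cell, from 1 to 26616. Which software summarised and normalized them is not given in the sources used here. Of 45101 probe sets, 64 were controls, 34945 had 1 gene in the platform annotation, 932 several and 9160 none, and 34741 matched RefSeq (GRCm38.p6). The array medians were 15.0 to 30.2, and signal over the floor and the number of arrays limit precision.

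Values were quantile-normalized. A gene was its brightest probe set, values under the floor were raised to it for means, differences and correlations between genes (those between probe sets of 1 gene used levels as read), and the 10055 genes detected in 3 cells or more were compared. Differences of 2-fold, or of 5 cells above the floor, were counted. Clusters came from Ward linkage on the most variable genes over a lowess trend. Calculations used Python 3.11.15, scipy 1.17.1, scikit-learn 1.9.0 and statsmodels 0.14.6. Clustering and differences were tested on simulated cells whose gene means lay above the floors. Amplification loss was not simulated, so that test does not cover it.

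The members and gene lists were chosen with earlier results of these data known. Named genes were all members, in each pathway list up to 2 genes past 2-fold per direction and the 1 closest to 0, 6 lineage and FGF genes, and the 3 genes most like each member above the floor in at least 5 cells. Lineage marker lists are given as counts. Floor, pseudocount, normalization, probe set choice, cluster genes and omitted cells were varied.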

Additional observations from a re-analysis of the deposited data

How the results depend on the processing

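The count of members at least 2-fold higher in the primitive endoderm-like cells was 1 (Sdc4), and in the epiblast-like cells 0, in all 14 alternatives run. The Sdc4 difference of 3.99 (log2, primitive endoderm-like minus epiblast-like) was 2.99 with the mean of all probe sets, 5.21 with values under the floor as read, and 1.75 with the probe set above the floor in most cells, which was an alternative chosen after seeing the data. It was 4.70 without the epiblast-like cells 2, 12 and 16, also chosen after seeing the data. These are the epiblast-like cells with detected Sdc4, so their omission could only raise the difference. It was between 3.22 and 4.38 in the others. Those covered deposited values, pseudocount, floors, omitted cells, cluster genes and grouping by Fgf4. Grouping by Fgf4 gave the same split as the clusters, so it could not change the difference. The number of genes at least 2-fold higher in the primitive endoderm-like and in the epiblast-like cells was 310 and 381, and became 164 and 114 with the floor at the 99th percentile, 175 and 218 with the mean of all probe sets, and 787 and 1129 with values under the floor as read. The cause of these changes was not tested. Cells above the floor ranged from 9 to 15 for Sdc4, 7 to 9 for Gpc4, 0 to 7 for Sdc1, 0 to 17 for Sdc3, 0 to 1 for Sdc2 and 0 to 3 for Gpc1, and stayed at 0 for Gpc3 and Gpc6, over 9 alternatives. The Gpc4 difference ranged from -0.01, with values under the floor as read, to 0.60, with the floor at the 99th percentile. The second Gpc4 probe set alone, not among these alternatives, gave 0.70. No paired analysis was possible because the cells form 1 group and no embryo is named. With no replicate of a cell, amplification loss in single cells was not measured.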
